A study of Mus musculus with 4 samples.

Results

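The genes examined here are 42 genes that mouse cells use to copy their DNA, given as a list of gene symbols for replication licensing, the fork and nucleotide synthesis. They were found by gene symbol in the deposited table of 55426 rows, where each symbol occurred once. All 42 averaged 1 FPKM or more across the 4 libraries and were tested, among 13931 genes in all. FPKM counts sequenced fragments relative to transcript length and library size, so levels are per length. RNA was sequenced after poly(A) selection from mouse retinal organoids, aggregates of pluripotent stem cells that are led in culture towards eye tissue, at day 6. Every library came from the same line, labelled Rx:GFP Mettl3 KO and carrying a Dox-inducible HA-METTL3, and the medium of every library held AGN at 0.1 µM. The 2 untreated libraries received no doxycycline (Dox), and the 2 Dox libraries received 2 µg/ml for 6 days. METTL3 is the catalytic subunit of the enzyme that places N6-methyladenosine on RNA. The comparison asks which replication genes differ in level when the inducible copy is meant to be on. No library had Dox without the inducible copy, so the drug and the protein cannot be told apart. The titles read EV and EV+Dox, which the labels do not explain. All libraries carry 1 batch date, the protocol speaks of 2 rounds of library preparation, and nothing in the labels says that they are separate cultures, so p-values measure the spread between these libraries, which may be technical.

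Library sizes were similar, with 31800000 to 35100000 fragments fitted from the steps of the low values and FPKM sums of 793308 to 866239. Mettl3 itself stood at 40.3 and 38.0 FPKM untreated and at 45.2 and 46.4 FPKM with Dox (log2 fold change 0.22, SE 0.0681, adjusted p = 0.122 in limma), and the gene row does not separate the inducible copy from the labelled knockout locus. The organoids carried retinal markers mainly with Dox. The summed level of 12 retinal progenitor markers was 281 to 310.1 FPKM untreated and 1092 to 1275 FPKM with Dox. Of the 11 tested genes in this list 10 were higher at an adjusted p below 0.05 in limma. The summed level of 16 postmitotic neuron markers was 214 to 216 FPKM untreated and 102 to 104 FPKM with Dox. Of the 11 tested genes in this list 10 were lower and 1 higher past the same threshold. Over all tested genes 9.31% passed it, in either direction. In bulk RNA, fewer cells of a type and less RNA per cell cannot be told apart. The part of these marker shifts in the values below was not tested.

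DNA replication starts in G1, when the origin recognition complex with CDC6 and CDT1 loads the MCM2-7 helicase ring on DNA. In S phase CDC45 and the GINS complex turn the ring into an active helicase, primase and the polymerases build the strands, and PCNA with its loader RFC holds the polymerases on the template. The genes are driven largely by E2F transcription factors and are transcribed in cycling cells, such as the neuroepithelial progenitors of the early eye, while neurons that have left the cycle shut them down.

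The promoters of these genes are shown first. The list was given by gene symbol and not by promoter letters. Since replication genes are known to be driven largely by E2F, a raised share of E2F-type motifs can follow from the choice of members. Windows of 300 bases (250 before and 50 after the RefSeq start, build GRCm38.p6) were matched by symbol for 35 of the 42 members, all but Prim2, Gins2, Pole, Gins1, Gins4, Mcm4 and Exo1. An E2F-type motif was searched on both strands as any of TTTCCCGC, TTTCGCGC, TTTGCCGC and TTTGGCGC, and matches could overlap. It was present for 13 of the 35 members (37.1%), for 26 of 92 genes in 6 lists of other replication genes (28.3%), for 1 of 28 mitosis genes (3.57%) and for 2.61% of the 27025 genes with a window. The 13 members were Orc1, Cdc6, Cdt1, Mcm3, Mcm5, Mcm6, Mcm7, Gins3, Pola1, Pold1, Rfc3, Lig1 and E2f2. The CHR motif (TTTGAA or TTCGAA), known from promoters of genes expressed in G2 and mitosis, was in 7 of 35 members (20%), 21 of 28 mitosis genes (75%) and 21.7% of all genes. The CCAAT box, which NF-Y binds, was in 22 of the 35 members (62.9%), 21 of 28 mitosis genes (75%) and 41.1% of all genes. Base composition differed as well, with a median GC content of 58.8% in the members' windows, 60.7% in those of the mitosis genes and 52.7% in all windows. A match describes letters and shows no binding, and a window without a match does not show that E2F is absent.

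The stretches before the start of 4 members are printed 5′ to 3′ on the gene's strand, with E2F-type matches in capitals. Mcm5 (chr8:75109259-75109508, plus strand), Mcm6 (chr1:128359706-128359955, minus strand) and Pola1 (chrX:93632156-93632405, minus strand) hold the motif, and the matches of Mcm5 and the upper pair of Mcm6 overlap each other. Tk1 (chr11:117826093-117826264, minus strand) is the member called lower with Dox, a call that did not hold in every alternative fit, as given below. Its window held no match. Its last 78 bases before the start lie in annotated exons and are left out.
Mcm5: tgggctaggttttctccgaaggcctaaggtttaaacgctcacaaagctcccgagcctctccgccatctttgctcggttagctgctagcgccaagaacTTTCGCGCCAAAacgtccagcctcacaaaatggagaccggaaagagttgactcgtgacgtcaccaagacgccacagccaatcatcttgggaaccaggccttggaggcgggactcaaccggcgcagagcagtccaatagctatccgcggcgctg
Mcm6: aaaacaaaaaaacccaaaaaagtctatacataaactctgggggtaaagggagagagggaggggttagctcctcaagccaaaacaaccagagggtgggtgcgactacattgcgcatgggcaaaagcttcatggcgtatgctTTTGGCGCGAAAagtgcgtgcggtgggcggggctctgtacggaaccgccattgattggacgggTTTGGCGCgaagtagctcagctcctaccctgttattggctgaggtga
Pola1: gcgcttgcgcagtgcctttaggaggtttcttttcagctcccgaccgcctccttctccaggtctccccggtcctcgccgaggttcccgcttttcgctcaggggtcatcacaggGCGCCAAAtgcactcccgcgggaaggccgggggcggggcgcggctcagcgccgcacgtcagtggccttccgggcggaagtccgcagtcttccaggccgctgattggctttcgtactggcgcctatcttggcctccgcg
Tk1: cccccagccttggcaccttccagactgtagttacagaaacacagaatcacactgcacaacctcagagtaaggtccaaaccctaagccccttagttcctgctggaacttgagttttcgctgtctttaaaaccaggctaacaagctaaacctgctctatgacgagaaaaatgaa

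Fold changes with Dox were also split by the motif, as a description with no test. The median log2 fold change was -0.056 for the 13 with an E2F-type match (range -0.41 to 0.24) and -0.057 for the 22 without one (range -0.39 to 0.14).

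**Figure D1:**
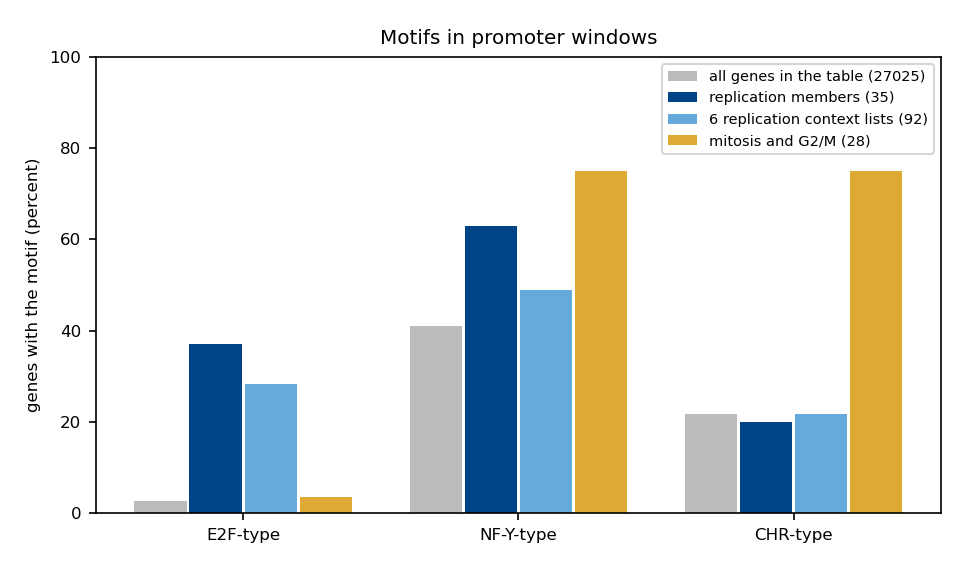
Bars give the percent of genes whose 300-base promoter window holds an E2F-type, NF-Y-type (CCAAT) or CHR-type motif on either strand, for all genes with a window, the replication members, the other replication lists and the mitosis list, with the number of genes in parentheses. The E2F-type bar is 37.1% for the members and 2.61% for all genes, while the CHR-type bar is 75% for the mitosis genes and 20% for the members.

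Across the group, 1 of the 42 genes changed with Dox at an adjusted p below 0.05 in limma (2.38%): Tk1, the thymidine kinase of S phase, was lower. Over all tested genes 9.31% passed that threshold and 4.87% were lower past it. At an unadjusted p below 0.05 in limma there were 7 members, 1 higher and 6 lower (16.7%, against 23.9% of all tested genes). Untreated and Dox values were fully separated for 24 members, 7 higher and 17 lower with Dox (57.1%, against 53.4% of all tested genes). Taken in either direction, the shares of the members at these looser limits were thus below or near those of the whole table. By direction, 1673 of all tested genes were higher and 1663 lower at the unadjusted limit. Full separation held for 3690 higher and 3743 lower. The split of the members by direction was not tested. The fold changes themselves were small. On the log2(FPKM + 1) scale their median was -0.054, against -0.0042 over all tested genes, and they ran from -0.41 (E2f2) to 0.24 (Orc1). A negative sign was seen for 28 members and a positive sign for 14, against 7083 and 6848 of all tested genes. With each library rescaled to the same sum the median of the members was -0.032, against 0.016 over all tested genes, and 18 members were positive.

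The median standard error of the fold change was 0.0719 for the members, 0.0722 for the 34 mitosis and G2/M genes and 0.103 for all tested genes, whose median level is lower (14.4 against 69.7 FPKM). The 95% interval of limma (not adjusted for the number of genes) lay within ±0.5, that is within a 1.41-fold change either way, for 40 of the 42 members and for 65.5% of all tested genes. The 2 exceptions were Tk1 and E2f2, both on the lower side. It lay within ±0.25 (1.19-fold) for 11 members and 12.9% of all tested genes. Replicates of the members differed by a median of 0.0702 (untreated) and 0.0793 (Dox) on the log2(FPKM + 1) scale, and the group means by 0.0938. The same medians over all tested genes were 0.101, 0.119 and 0.133. A mean of 2 libraries varies less than 1 library, so the difference of group means is not on one footing with the replicate differences. Single libraries of the same replicate number differed between groups by a median of 0.123 (replicate 1) and 0.137 (replicate 2) for the members. Over all tested genes these medians were 0.155 and 0.184. With 2 libraries against 2, no single gene can reach a two-sided exact permutation p below 0.33, and the p-values rest on the variance that limma shares across genes.

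**Figure D2:**
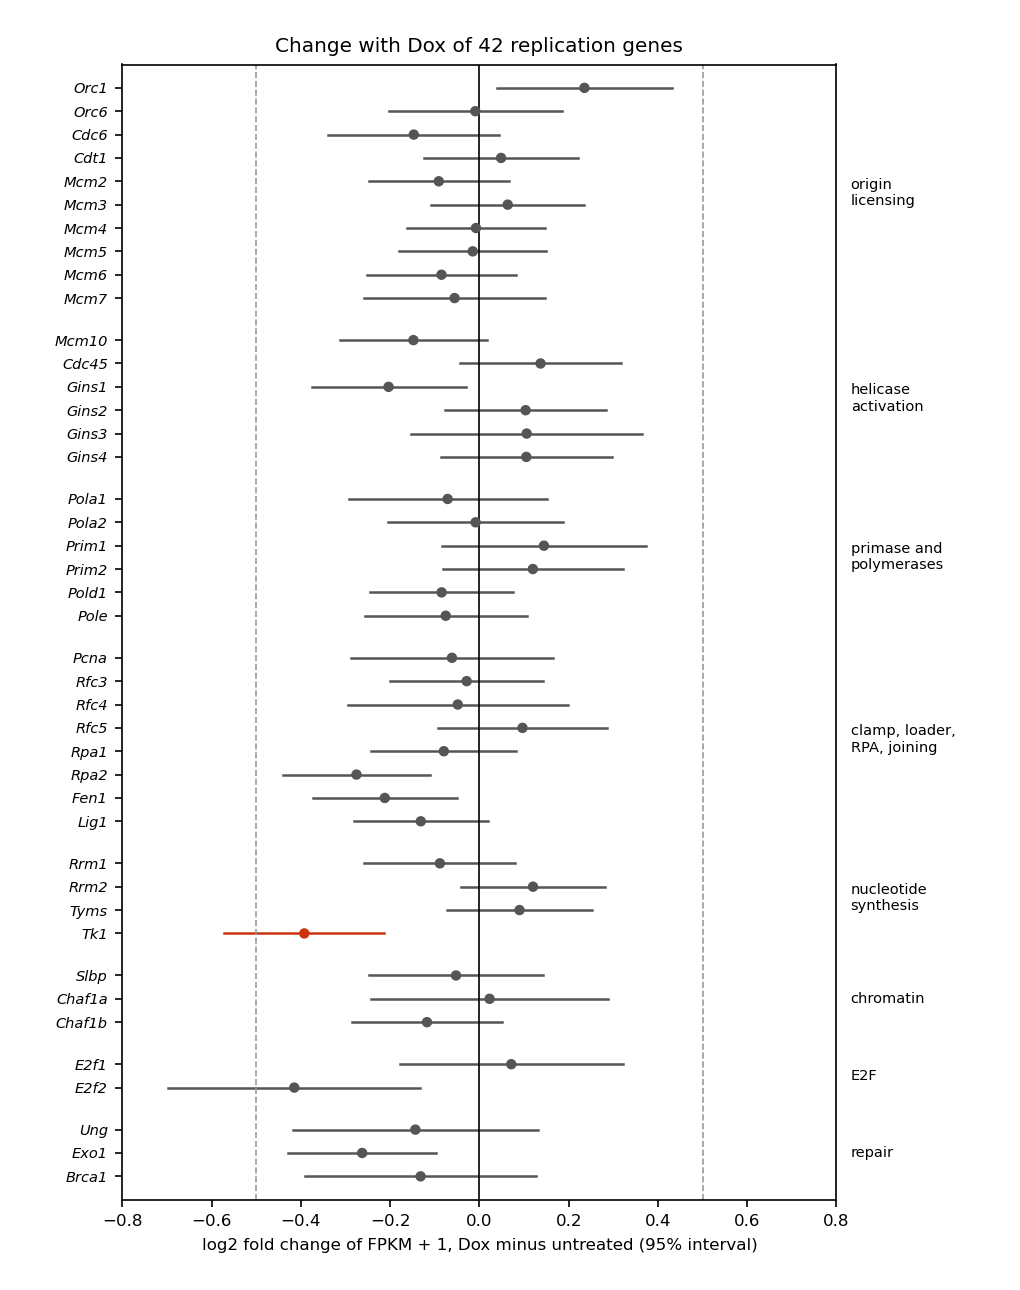
Points give the log2 fold change of FPKM + 1 (Dox minus untreated, horizontal axis) of each member, grouped by role, with the 95% interval of limma as a line, and dashed lines mark ±0.5. Tk1, in red, is the member past the adjusted threshold, and 40 of the 42 intervals lie between the dashed lines.

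**Figure D3:**
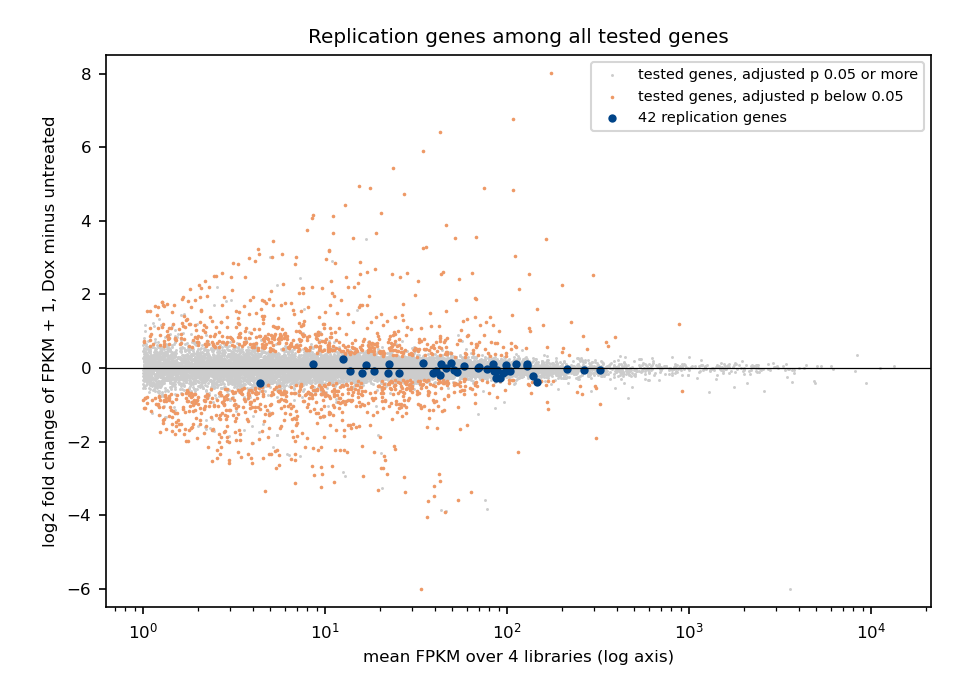
Each point is a tested gene, with its mean FPKM over 4 libraries on a log axis and its log2 fold change of FPKM + 1 (Dox minus untreated) on the vertical axis. The 42 replication genes, in dark blue, lie between -0.41 and 0.24, while genes past the threshold, in orange, reach 8.02 upwards.

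Origin licensing genes kept close to their untreated levels, and 0 of the 10 passed the threshold in limma (median log2 fold change -0.012). At an unadjusted p below 0.05 in limma there was 1 gene (10%, against 23.9% of all tested genes). Orc1, the subunit of the origin recognition complex whose level cycles with cell division, stood at 11.6 and 11.3 FPKM untreated and at 13.6 and 13.7 FPKM with Dox. Both Dox libraries lay above both untreated ones (log2 fold change 0.24, SE 0.0787, adjusted p = 0.147). Its exons overlap the predicted gene Gm12743 on the opposite strand, and whether counting used strand is not given in the sources used here. Cdc6, the ATPase that loads the ring with CDT1, was at 22.3 and 24.2 FPKM untreated and at 20.9 FPKM in both Dox libraries (log2 fold change -0.15, SE 0.0765, adjusted p = 0.322). Cdt1, the partner that brings MCM2-7 to the origin, was at 59.4 and 55.0 FPKM untreated and at 59.4 and 58.9 FPKM with Dox, so that the groups overlapped (log2 fold change 0.05, SE 0.0692, adjusted p = 0.728). Orc6, the smallest origin recognition subunit, lay between 79.8 and 88.2 FPKM in all libraries.

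The 6 genes of the helicase ring had log2 fold changes between -0.09 (Mcm2) and 0.06 (Mcm3), and 0 of them passed the threshold in limma or had an unadjusted p below 0.05. Mcm2 was at 108 and 105 FPKM untreated and at 98.9 and 102 FPKM with Dox (log2 fold change -0.09, SE 0.0627, adjusted p = 0.450), with the Dox libraries below the untreated ones. Mcm4 ranged from 68.2 to 70.2 FPKM over the 4 libraries and had an interval of -0.16 to 0.15. Mcm5 ranged from 209 to 218 FPKM with an interval of -0.18 to 0.15. The groups overlapped for Mcm3, Mcm4, Mcm5 and Mcm7, and for Mcm2 and Mcm6 both Dox libraries were lower. Pooled over its 10 annotated transcripts, exons of Mcm7 overlap the microRNA genes Mir25 and Mir93 on the same strand. They also overlap exons of Ap4m1 and Cops6 on the other. Which of the transcripts carry these exons was not examined.

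Helicase activation genes went both ways and 0 of 6 passed the threshold in limma. An unadjusted p below 0.05 was found for 1 of them (16.7%, against 23.9% of all tested genes). Gins1, a subunit of the 4-part GINS complex, stood at 46.2 and 45.7 FPKM untreated and at 41.2 and 38.4 FPKM with Dox (log2 fold change -0.20, SE 0.0690, adjusted p = 0.151). The other 3 GINS genes had positive values, with log2 fold changes of 0.10 (Gins2), 0.11 (Gins3) and 0.11 (Gins4) and adjusted p-values of 0.453 to 0.596. The subunits of this complex therefore differed in sign, though none passed the threshold. Mcm10, which helps the helicase start, was at 40.9 and 41.3 FPKM untreated and at 37.9 and 36.2 FPKM with Dox (log2 fold change -0.15, SE 0.0656, adjusted p = 0.251). Cdc45, which joins GINS on the ring, was at 33.7 and 31.8 FPKM untreated and at 37.1 and 35.2 FPKM with Dox (log2 fold change 0.14, SE 0.0720, adjusted p = 0.326). The libraries of Gins1 and Mcm10 were lower with Dox and those of Cdc45 higher, without overlap.

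Among the primase and polymerase genes 0 of 6 passed the threshold in limma, and 0 did at an unadjusted p below 0.05. Pola1 and Pola2, the catalytic and second subunits of the polymerase that starts each strand, had log2 fold changes of -0.07 and -0.01. Their primase partners Prim1 and Prim2 had 0.14 and 0.12. Pold1 and Pole, the catalytic subunits of the lagging- and leading-strand polymerases, had -0.08 each. Adjusted p-values of these 6 genes lay between 0.409 and 0.960.

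Of the 8 genes of the clamp, its loader, single-strand binding and joining of lagging-strand fragments, 7 had a negative sign. In limma 0 passed the threshold and 2 had an unadjusted p below 0.05, both lower (25%, against 23.9% of all tested genes). Pcna, the sliding clamp and the most abundant member, was at 320.4 and 344 FPKM untreated and at 338 and 299.7 FPKM with Dox (log2 fold change -0.06, SE 0.0905, adjusted p = 0.737). Dox replicate 1 lay between the untreated libraries and Dox replicate 2 below them. The pseudogene Pcna-ps2 was listed at 104 to 124 FPKM, so reads may be divided between the copies and the level of Pcna is uncertain. Rpa2, the middle subunit of the single-strand binding protein RPA, was at 99.9 and 101 FPKM untreated and at 85.7 and 80.5 FPKM with Dox (log2 fold change -0.28, SE 0.0662, adjusted p = 0.0665), second in rank to Tk1 by p. Rpa1, its large partner, had a log2 fold change of -0.08 (interval -0.24 to 0.08). Fen1, the nuclease that trims lagging-strand flaps, was at 148 and 151 FPKM untreated and at 132 and 126 FPKM with Dox (log2 fold change -0.21, SE 0.0646, adjusted p = 0.119). Lig1, the ligase that seals the fragments after FEN1, was at 98.8 and 99.1 FPKM untreated and at 90.5 and 90.1 FPKM with Dox (log2 fold change -0.13, SE 0.0601, adjusted p = 0.264). For Rpa2, Fen1 and Lig1 both Dox libraries lay below both untreated ones. The loader genes Rfc3, Rfc4 and Rfc5 had log2 fold changes of -0.03, -0.05 and 0.10, and their groups overlapped except for Rfc5. Exons of Fen1 and Lig1 overlap other genes on the opposite strand.

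Nucleotide synthesis held the single call. Tk1 (ENSMUSG00000025574, chromosome 11, minus strand), which salvages thymidine for DNA synthesis, stood at 161 and 169 FPKM untreated and at 129.8 and 121 FPKM with Dox. Both Dox libraries were lower by more than the distance between replicates, and the means were 165 ± 6.03 and 125 ± 6.15 FPKM (SD, n = 2 each), a change of -23.9%. The log2 fold change was -0.39 (SE 0.0717, 95% interval -0.57 to -0.21, adjusted p = 0.0284 in limma). The call was lost without the filter on low values (adjusted p = 0.0879), with variances estimated without the intensity trend (adjusted p = 0.0603) and when any 1 of the 4 libraries was left out (log2 fold change -0.44 to -0.34, adjusted p = 0.0776 to 0.219). Exons of Tk1 overlap those of Afmid on the opposite strand, a gene at 2.12 to 2.69 FPKM. The other route to thymidine nucleotides runs through Tyms, thymidylate synthase, which was at 96.4 and 95.6 FPKM untreated and 105 and 99.3 FPKM with Dox (log2 fold change 0.09, adjusted p = 0.472). Rrm2, the S-phase subunit of ribonucleotide reductase, was at 122 and 126 FPKM untreated and at 133 and 137 FPKM with Dox (log2 fold change 0.12, SE 0.0642, adjusted p = 0.334). Its large partner Rrm1 had a log2 fold change of -0.09. Tyms and Rrm2 were thus higher in both Dox libraries and Rrm1 and Tk1 lower, and of these 4 only Tk1 passed the test.

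Among the genes for histone supply and chromatin assembly 0 of 3 passed the threshold in limma, and 0 at an unadjusted p below 0.05. Slbp, the protein that binds the stem-loop of replication histone messages, was at 88.4 and 91.5 FPKM untreated and at 91.5 and 82.1 FPKM with Dox (log2 fold change -0.05, SE 0.0775, adjusted p = 0.738). Chaf1a and Chaf1b, subunits of the CAF-1 histone chaperone, had log2 fold changes of 0.02 and -0.12. The Dox replicates of Chaf1a lay on either side of the untreated ones, at 63.9 and 77.4 FPKM.

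The E2F activators among the members, E2f1 and E2f2, are known as regulators of many replication genes. E2f1 was at 17.2 and 15.5 FPKM untreated and at 16.1 and 18.4 FPKM with Dox, with the groups overlapping (log2 fold change 0.07, SE 0.100, adjusted p = 0.722). E2f2, the member with the lowest level, was at 4.89 and 5.46 FPKM untreated and at 3.46 and 3.8 FPKM with Dox (log2 fold change -0.41, SE 0.113, 95% interval -0.70 to -0.13, adjusted p = 0.0911). Its fold change had the largest size of the 42 and did not pass the threshold. The 2 activators were not tested against each other.

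Replication-linked repair genes all had a negative sign and 0 of 3 passed in limma. An unadjusted p below 0.05 was found for 1 of them (33.3%, against 23.9% of all tested genes). Exo1, the exonuclease of mismatch repair and break resection, was at 95.6 and 93.4 FPKM untreated and at 76.2 and 81.1 FPKM with Dox, without overlap (log2 fold change -0.26, SE 0.0665, adjusted p = 0.0760). Ung, which removes uracil from DNA, had a log2 fold change of -0.14 and Brca1, which protects stalled forks, of -0.13, with adjusted p-values of 0.498 and 0.508.

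The levels of the members differed far more from gene to gene than between conditions. Their median was 69.7 FPKM, against 14.4 FPKM over all tested genes, and the 42 together made up 0.380% to 0.406% of the summed FPKM of a library. Pcna was highest (mean 326 FPKM over 4 libraries), followed by Mcm7 (266) and Mcm5 (214), and the 4-library ranges of these 3 genes did not overlap each other or that of the next gene, Tk1 (145). E2f2 (4.40), Gins3 (8.55) and Orc1 (12.6) were lowest, and their ranges did not overlap each other. Between positions 8 and 22 of the order, from Gins2 to Mcm4, every gene overlapped the next, so the order of neighbours is not resolved. Genes further apart in this run could be separate, as Gins2 (lowest 105.6 FPKM) was from Mcm4 (highest 70.2 FPKM). Subunits of one complex were not at equal levels. In the MCM2-7 ring the order Mcm7, Mcm5, Mcm3, Mcm2, Mcm6, Mcm4 held with no overlap of neighbours, and the highest was 3.58 to 4.08 times the lowest in each library. In GINS the order Gins2, Gins4, Gins1, Gins3 was as well separated, with a ratio of 12.2 to 14.1. Rpa1 and Rpa2 overlapped, with a ratio of 1.00 to 1.15. An FPKM level depends on the transcript length assumed for a gene, and the ratios carry that limit. Exons of 14 of the 42 members overlap another gene, 13 of them on the opposite strand.

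**Figure D4:**
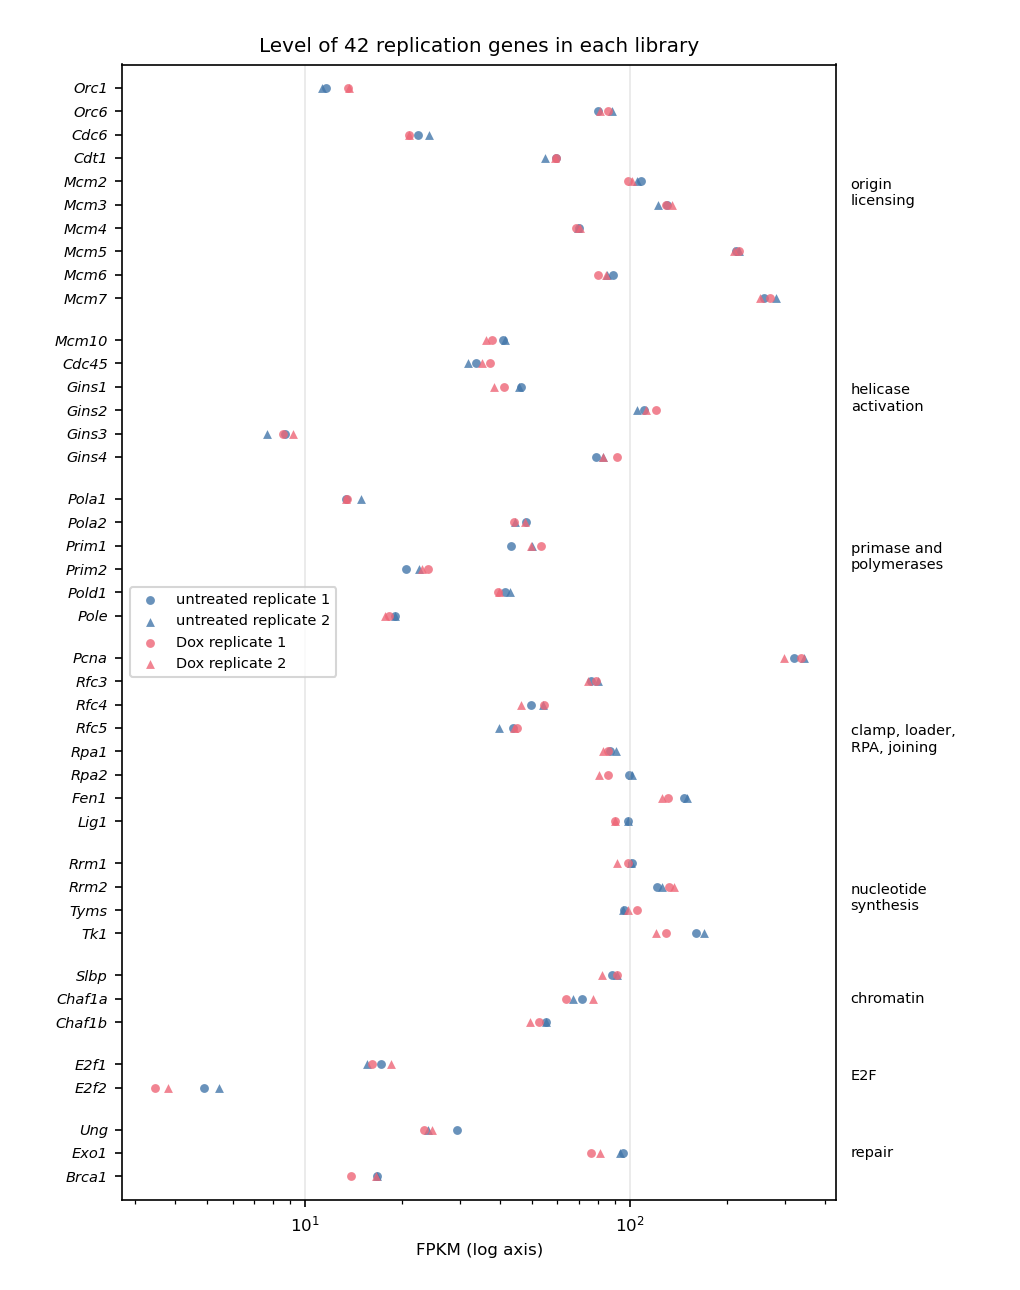
Each symbol is the FPKM of a member (log axis) in 1 of the 4 libraries, blue for untreated and red for Dox, with circles for replicate 1 and triangles for replicate 2. Levels run from 3.46 FPKM (E2f2) to 344 FPKM (Pcna), and the symbols of a gene lie close together.

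Other genes of the pathway gave no call either. In 6 further lists with 116 genes (origin licensing and firing, fork machinery, nucleotide supply, chromatin at the fork, E2F with its partners and G1/S kinases, and the S-phase checkpoint with repair), 0 genes passed the threshold in limma. An unadjusted p below 0.05 was found for 22 genes, of which 5 were higher and 17 lower (19.0%, against 23.9% of all tested genes). Their median log2 fold change was -0.076, and by list it ran from -0.14 for checkpoint and repair, where 20 of 23 genes had a negative sign, to -4.3e-04 for nucleotide supply. Of the 34 mitosis and G2/M genes, which are used later in the same cycle, 0 passed in limma, while 6 had an unadjusted p below 0.05, all of them lower (17.6%). Their median was -0.055 and 28 had a negative sign, as did 7083 of all 13931 tested genes. Among all tested genes averaging 10 FPKM or more, 7.26% passed.

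Some genes that brake entry into S phase and many markers of retina and neurons passed the threshold. Of those named next, Cdkn2a, Rax, Six6, Tbx2 and Syt1 averaged under 1 FPKM untreated and Klf4 under 1 FPKM with Dox, so they passed the filter on low values only through the other group. Cdkn1a, the p21 inhibitor of cyclin-dependent kinases, fell from 56.0 and 49.0 to 26.9 and 27.8 FPKM (log2 fold change -0.91, adjusted p = 0.00269 in limma). Cdkn1c, the p57 inhibitor, rose from 16.9 and 15.6 to 29.4 and 32.5 FPKM (log2 fold change 0.89, adjusted p = 0.00304). A product of Cdkn2a inhibits CDK4 and CDK6, and the gene row does not separate the products of this gene. Cdkn2a was at 0.47 and 0.66 FPKM untreated and at 2.21 and 1.59 FPKM with Dox (log2 fold change 0.88, adjusted p = 0.0321 in limma). Its call was lost without the filter (adjusted p = 0.114) and with any library left out (0.0692 to 0.123), and its fold change was 1.59 with a pseudocount of 0.1 and 0.31 with one of 5. Of the 6 tested genes in the list of G1 inhibitors 3 passed, Cdkn1c and Cdkn2a higher and Cdkn1a lower, and 3 did not. Among retinal markers Rax, Six6 and Tbx2 had log2 fold changes of 6.78, 6.42 and 5.89 (adjusted p = 2.93e-05 for the first pair and 6.96e-05 for Tbx2), Six6 being listed at 0.01 FPKM in both untreated libraries. Among neuron markers Stmn2, Gap43 and Map2 fell, with log2 fold changes of -1.87, -2.20 and -1.70 (adjusted p = 4.15e-04, 6.88e-04 and 7.35e-04), and Syt1 was higher by 1.00 (adjusted p = 0.00778), a call lost without either Dox library (adjusted p = 0.0516 and 0.0567). In the list of 10 pluripotency markers 1 passed, Klf4 (log2 fold change -0.71, adjusted p = 0.0348). This call was lost without the filter (adjusted p = 0.101) and with any library left out (0.0880 to 0.127). The summed level of the list was 78.8 to 84.0 FPKM untreated and 60.5 to 87.5 FPKM with Dox. Of 5 tested surface epithelium markers 0 passed in limma and 1 had an unadjusted p below 0.05 (20%, against 23.9% of all tested genes). This list had sums of 53.2 to 58.4 FPKM untreated and 55.3 to 62.5 FPKM with Dox, and Krt14 was at 0. None of the 10 mesoderm and endoderm markers reached a mean of 1 FPKM, with sums of 1.58 to 1.68 and 2.66 to 3.12 FPKM, and Cer1 was at 0.

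**Figure D5:**
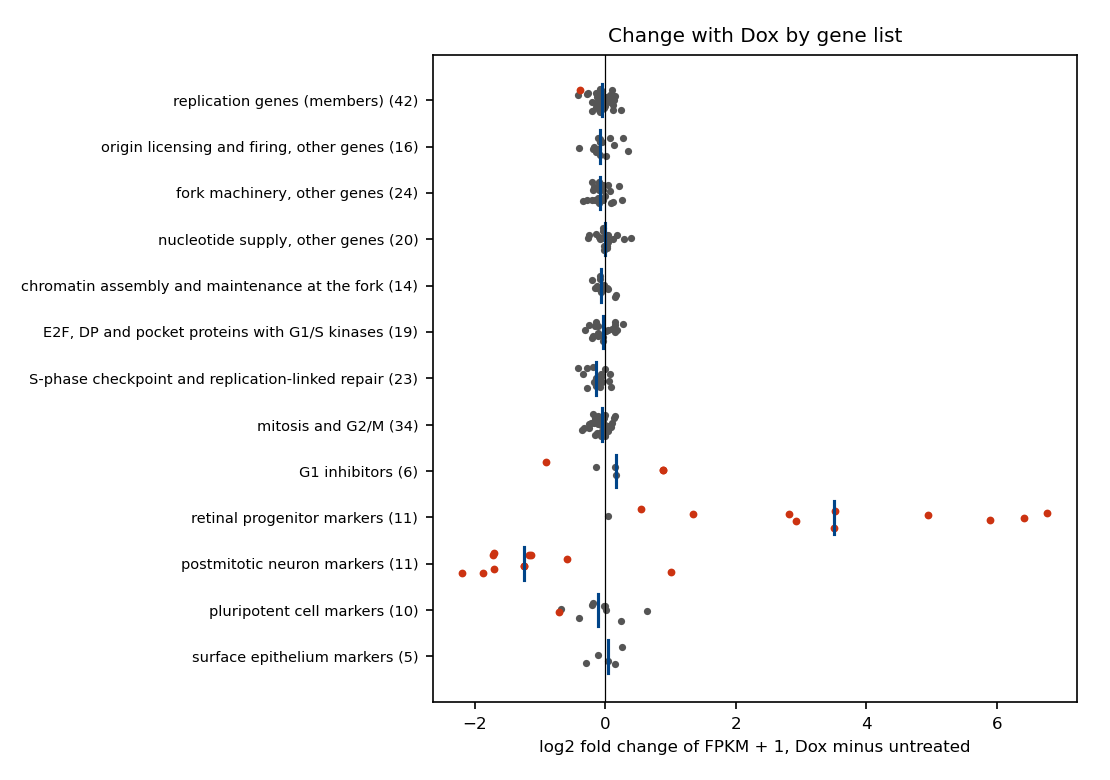
Each point is a tested gene, placed by its log2 fold change of FPKM + 1 (Dox minus untreated), in rows for the members, the other lists and the marker lists, with the number of tested genes in parentheses, red where the adjusted p is below 0.05 and a blue bar at the median. The replication and mitosis rows hold 1 red point, Tk1, and lie between -0.42 and 0.40, while the retinal row has a median of 3.50 and the neuron row of -1.24.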

How the data were processed

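RNA was measured in 4 libraries, 2 untreated and 2 with Dox, grouped by the treatment label, with 150 nt paired reads per the labels. The authors deposited FPKM values per gene, 1 column per library, rounded to 2 decimals. The submitters' processing notes list STAR, Cuffdiff and mm10, without roles or versions. Strand handling is not given in the sources used here.

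Values were transformed to log2(FPKM + 1), a scale that understates changes of low genes. The 13931 genes averaging 1 FPKM or more were fitted across the whole table with limma 3.58.1 in R 4.3.3 (eBayes with trend, two-sided, Benjamini-Hochberg over all tested genes, threshold 0.05). Figures used Python 3.11.15 with matplotlib 3.10.9. A simulation of this comparison had 13931 genes, of which 200 were changed. It recovered 95.5% of changes of 0.5 on the log2 scale and 100% of larger ones. Of its calls 7.51% were unchanged genes, and 0 genes were called when none was changed. The simulation gave all genes of a level the same spread. Spreads of real genes at a level differ, so recovery in the real data may be lower.

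Depth was fitted from values below 0.5 FPKM of single-transcript genes of 450 to 1200 nt, of which 79.5% to 84.1% were whole fragments within rounding (17.6% to 19.4% by chance). Even E2f2, the lowest member, then rested on about 495 fragments in its lowest library, taking its longest transcript, a counting error of about 4.49%. All 42 members were matched by identifier to GENCODE M21 (build GRCm38) for positions and overlapping exons, and promoters were taken from RefSeq.

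The members and all lists were chosen with earlier results of these data known. Given in full are the called member, the next by p up to 12, and Pcna, Mcm2, Cdt1, Rrm2, E2f1 and Slbp, and from each other list at most 3 called genes a direction. Orc6, Mcm4, Mcm5, Tyms and the other members are given in brief, and Pcna-ps2, Afmid, Krt14 and Cer1 were named after their values were seen. The alternatives were other pseudocounts, filters, scalings and variance models, the replicate block, and leaving out each library.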

Additional observations from a re-analysis of the deposited data

How the results depend on the processing

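The direction of the median over the members was negative under every alternative run, from -0.056 to -0.032 with all 4 libraries and from -0.071 to -0.020 with 1 library left out. The count of members called was 1 in the main analysis and 0 without the filter on low values, without the intensity trend, with the replicate block and with any library left out (0 to 0), and the same holds for members called lower. The replicate numbers showed no pairing (r = -0.0435), and the replicate block called 1134 genes over the whole table and gave Tk1 an adjusted p of 0.0916. Of all tested genes 1297 were called, against 745 without the filter, 821 with a minimum mean of 5 FPKM and 593 to 697 with a library left out. Of the 6 replication lists 1 gene was called with median centring (Dtl) and 2 with robust variances, and 0 to 1 mitosis gene with a library left out (Kif23 without Dox replicate 1). Values near 0 changed sign. With libraries rescaled to the same sum, the log2 fold changes were 0.013 (Orc6), 0.015 (Mcm4), 0.0075 (Mcm5) and 0.014 (Pola2), and quantile normalization gave 0.023 for Mcm5. Leaving out 1 library gave -0.0062 to 0.10 for Cdt1, -0.11 to 0.16 for Chaf1a, -0.019 to 0.16 for E2f1, -0.028 to 0.013 for Mcm4, -0.042 to 0.012 for Mcm5, -0.12 to 0.0046 for Mcm7, -0.081 to 0.063 for Orc6, -0.15 to 0.025 for Pcna, -0.15 to 0.0045 for Pola1, -0.067 to 0.050 for Pola2, -0.069 to 0.012 for Rfc3, -0.16 to 0.064 for Rfc4 and -0.13 to 0.025 for Slbp. The cause of these changes was not tested. Fits with a library left out had fewer libraries, and the fit without the filter tested more genes. The part of either was not separated. With 2 libraries a group, the width of the intervals limits what small differences can be told from 0.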
